A study of Mus musculus with 5 samples.

Results

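Intermediate filament genes were examined in single mouse embryos with and without Oct4 in the epiblast. The group comprised 10 genes, the keratins *Krt8*, *Krt18*, *Krt7* and *Krt19*, vimentin (*Vim*), nestin (*Nes*), the neurofilament genes *Nefl* and *Nefm*, and the lamins *Lmna* and *Lmnb1*. They were chosen by gene name from the 49671 genes of the deposited count table, with earlier results of the comparison of SO- and SO+ embryos already known. Their values in that comparison are therefore given as a description and without p-values. Control SO+ embryos (Sox2Cre-/-; Oct4 fl/+) carried 1 floxed and 1 normal Oct4 allele and no Cre. SO- embryos (Sox2Cre+/-; Oct4 fl/-) carried the floxed allele over a null allele, together with Cre under the promoter of *Sox2*, which drives recombination mainly in the epiblast. The visceral endoderm (VE), the epithelium around the epiblast, is thus present in every sample and is not the target of this Cre. There were 2 SO+ and 3 SO- embryos on a mixed strain background, and each sample held epiblast plus VE from a single animal, with the extraembryonic ectoderm (ExE) cut away, taken as gastrulation begins and before mutants look abnormal. Cre was present only in SO- embryos, so Cre and loss of Oct4 cannot be told apart.

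Intermediate filaments are rope-like polymers that give cells and nuclei mechanical strength. Keratins assemble only as pairs of a type I chain (*Krt18*, *Krt19*) with a type II chain (*Krt8*, *Krt7*), and the pair of *Krt8* and *Krt18* is the keratin of simple epithelia such as VE and trophoblast. *Vim* encodes the type III filament of mesenchymal cells, which is a common marker of epithelial-mesenchymal transition. *Nes* encodes a large filament protein of neural progenitors, and *Nefl* and *Nefm* encode the light and medium neurofilament chains, best known from axons. Lamins form the meshwork under the inner nuclear membrane. B-type lamins such as *Lmnb1* are present in nearly all nuclei, whereas A-type lamins from *Lmna* are low in early embryonic cells.

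Libraries differed greatly in depth. Total counts were 27538119 and 27047148 in the SO+ embryos and between 1117566 and 4191498 in the SO- embryos, so the mean SO+ library was 8.67 times as deep. A gene with 3 counts had at most 0.111 CPM (counts per 1000000 counted reads) in SO+ embryos but 2.68 CPM in SO- embryo 2, the shallowest library. One of the sequencing index positions also differed between all SO+ and all SO- libraries, so index and genotype cannot be told apart. *Pou5f1*, which encodes Oct4, was at 920 and 435 CPM in SO+ embryos against 27.8, 12.5 and 43.7 CPM in SO- embryos, as the labels state (log2 fold change -4.43, SE 0.33). Of the 12067 genes with enough counts to be tested, 283 (2.35%) passed an adjusted p threshold of 0.05 (quasi-likelihood test of edgeR), with 171 higher in SO- (1.42%) and 112 lower (0.928%). These genes are referred to as called. CPM values of the 2 genotypes did not overlap for 29.5% of the tested genes. An unadjusted p under 0.05 in edgeR was reached by 1656 of the 12067 tested genes.

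All 10 filament genes had enough counts to be tested. In edgeR *Krt8* and *Krt18* were called higher in SO- embryos, *Nefl* was called lower, and the other 7 were not called. DESeq2 called 4 of the 10, *Krt7* (higher) in addition, beside 380 of the 15084 genes to which it gave an adjusted p. Values of the genotypes did not overlap for 7 of the 10, namely *Krt8*, *Krt18* and *Krt7*, which were higher in SO-, and *Nefl*, *Nefm*, *Nes* and *Vim*, which were lower. *Krt19*, *Lmna* and *Lmnb1* overlapped. The median log2 fold change of the 10 was 0.04, beside -0.002 over all tested genes. Together the 10 genes took 820 and 901 CPM in SO+ embryos against 1197, 1376 and 1125 CPM in SO- embryos, and the combined share of *Krt8* and *Krt18* within that sum was 54.5% and 58.4% in SO+ against 74.1%, 75.0% and 67.1% in SO-.

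**Figure D1:**
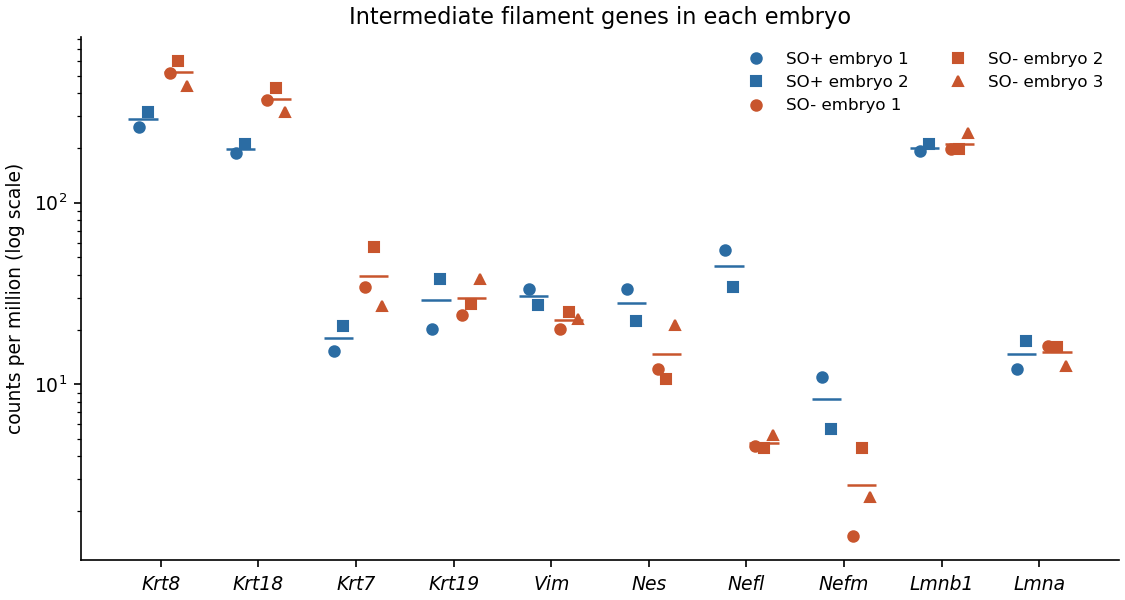
Level of each filament gene in every embryo, in CPM on a log scale, with SO+ embryos in blue, SO- embryos in orange, 1 marker shape per embryo and a short line at each group mean. *Krt8*, *Krt18* and *Krt7* sit higher in all 3 SO- embryos, *Nefl* sits near 5 CPM in SO- against 34.4 and 55.2 CPM in SO+, and *Lmnb1* and *Lmna* overlap.

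To order the genes by abundance, CPM was divided by the length of the main annotated transcript in kilobases. In SO+ embryos the highest levels per kilobase were those of *Krt8* (147 ± 20.3, SD, n = 2) and *Krt18* (138 ± 11.5), which differed by less than their spread, followed by *Lmnb1* (70.7 ± 4.36). *Krt19* (18.4 ± 7.86), *Vim* (13.9 ± 2.09) and *Nefl* (13.3 ± 4.34) formed a middle tier whose neighbours were not separated beyond their spread. *Lmna* (4.67 ± 1.17), *Nes* (4.55 ± 1.29) and *Krt7* (4.41 ± 0.980) were likewise close together, and *Nefm* was lowest (2.26 ± 1.03). In SO- embryos the upper part of this order was the same, with *Krt8* at 266 ± 43.0 (SD, n = 3), *Krt18* at 258 ± 38.0, *Lmnb1* at 74.5 ± 8.74 and *Krt19* at 19.0 ± 4.59 CPM per kilobase. Below these came *Vim* (10.3 ± 1.14) and *Krt7* (9.63 ± 3.87), then *Lmna* (4.75 ± 0.642) and *Nes* (2.40 ± 0.932). *Nefl* dropped from sixth to ninth place (1.41 ± 0.123 CPM per kilobase), above *Nefm* (0.753 ± 0.421).

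*Krt8* and *Krt18* are neighbours in the genome, although one encodes a type II and the other a type I chain. *Krt8* (ENSMUSG00000049382, 9 exons in its main transcript) lies on the minus strand at chr15:101996698-102004482 of GRCm38, and *Krt18* (ENSMUSG00000023043, 7 exons) on the plus strand at chr15:102028180-102032027, with 23697 bases between them. The genes thus point away from each other, and their upstream sequences, shown because this pair was called together, face the same interval. They are taken from RefSeq (GRCm38.p6) and stop just before the annotated gene. The *Krt8* stretch is the minus strand of chr15:102004483-102004592, and the *Krt18* stretch the plus strand of chr15:102027966-102028179. Capitals mark AGATAA, a sequence recognised by GATA factors.
Krt8: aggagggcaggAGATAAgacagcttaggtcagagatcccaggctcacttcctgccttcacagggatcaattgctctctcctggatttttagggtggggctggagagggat
Krt18: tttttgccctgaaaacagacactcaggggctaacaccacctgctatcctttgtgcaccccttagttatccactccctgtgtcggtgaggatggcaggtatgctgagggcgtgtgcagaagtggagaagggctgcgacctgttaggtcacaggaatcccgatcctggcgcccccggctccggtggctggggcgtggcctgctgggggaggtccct
Over the full 250 bases before each RefSeq start, 5 motifs were searched on both strands. The 6 filament genes searched were *Krt8*, *Krt18*, *Krt7*, *Vim*, *Nes* and *Lmna*, whereas *Nefl*, *Nefm*, *Krt19* and *Lmnb1* were not searched. The octamer ATGCAAAT, the sequence bound by Oct4, was absent from the windows of these 6 genes. It was also absent from most promoters, since 1.60% of 32851 windows of the same length held it. AGATAA occurred once in *Krt8* and in 9.99% of all windows. TATAAA occurred once in *Vim* (12.4% of all windows), GGGCGG occurred in *Krt7*, *Nes* and 1 of the 2 *Lmna* windows (32.7%), and the AP-1 sequence TGANTCA in none of the 6 genes (6.75%). A missing match says only that these letters do not occur in the window.

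*Krt8* measured 259.7 and 316 CPM in SO+ embryos against 519, 607 and 438.5 CPM in SO- embryos. Every SO- embryo was thus above both controls, and the log2 fold change was 0.85 (SE 0.14). *Krt18* measured 187 and 210.1 CPM in SO+ embryos against 368, 426 and 317 CPM in SO- embryos, again without overlap, with a log2 fold change of 0.90 (SE 0.13). Both genes ranked the 5 embryos in the same order, from SO+ embryo 1 to SO- embryo 2. The ratio of *Krt8* to *Krt18* counts, not corrected for length, was 1.39 and 1.50 in SO+ embryos against 1.41, 1.42 and 1.38 in SO- embryos, so the chains of this pair kept a similar proportion in all 5 embryos. Without SO- embryo 1, or without SO- embryo 2, neither gene was called, although the log2 fold change over all such omissions of 1 embryo stayed between 0.71 and 1.00 for *Krt8* and between 0.80 and 0.99 for *Krt18*. A processed *Krt8* pseudogene, *Krt8-ps*, that matches 941 bases of the transcript at 98.6% identity had 107 and 153 counts in SO+ embryos against 25, 3 and 13 in SO- embryos. *Krt8* itself had 7152 and 8547 counts in SO+ embryos and 2145, 678 and 1838 in SO-. *Krt18* also has a processed pseudogene, *Gm5200*, which matches 1267 bases of its transcript at 90.45% identity and is absent from the count table. How reads shared with either pseudogene were assigned was not tested. The nearest tested protein-coding genes on either side of the keratin interval, *Atg101* and *Eif4b*, had log2 fold changes of 0.04 (edgeR adjusted p = 0.957) and -0.01 (edgeR adjusted p = 0.994). Between *Krt7* and *Krt18* the annotation places 23 further keratin genes, of which 7 had any count and 0 had enough to be tested.

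The partner chains behaved differently from each other. *Krt7*, a type II keratin of trophoblast and glandular epithelia, lies 566384 bases from *Krt8* at chr15:101411043-101430313. It measured 15.2 and 20.9 CPM in SO+ embryos against 34.1, 57.3 and 27.0 CPM in SO- embryos. All SO- embryos were above both controls and the log2 fold change was 1.05 (SE 0.29), no smaller than that of *Krt8*. edgeR did not call *Krt7* with all 5 embryos, whereas DESeq2 called it (log2 fold change 1.07), as did edgeR without SO+ embryo 2 (1.29). The annotated *Krt7* transcript of 4094 bases holds a stretch of at most 191 bases that recurs at 90% identity or more in transcripts of 80 other genes, so part of its reads may not be assigned uniquely. *Krt19*, a type I keratin at chr11:100140810-100148665, measured 20.2 and 37.8 CPM in SO+ embryos against 23.9, 27.7 and 37.9 CPM in SO- embryos. The groups overlapped fully and the log2 fold change was 0.06 (SE 0.28). Relative to its mean *Krt19* varied more between the SO+ embryos than the other keratins, and its log2 fold change moved from -0.32 to 0.58 as single embryos were left out.

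These keratins are expressed by VE and by trophoblast, whose markers are therefore set beside them. The summed level of 16 VE markers was 5119 and 5343 CPM in SO+ embryos against 7267, 7404 and 4756 CPM in SO- embryos (exact permutation test, two-sided, p = 0.4, where 0.1 is the smallest p that 2 against 3 embryos allow). Of the 16, 14 had a log2 fold change above 0, and 0 were called in edgeR (6 at an unadjusted p under 0.05; DESeq2 and limma-voom also called 0). The most abundant were the apolipoproteins *Apoe* (log2 fold change 0.24, edgeR adjusted p = 0.481) and *Apoa1* (0.42, adjusted p = 0.319). SO- embryo 3 had the lowest VE sum of all 5 embryos. *Krt8* and *Krt18* together equalled 8.72% and 9.85% of the VE sum in SO+ embryos against 12.2%, 13.9% and 15.9% in SO- embryos. The summed level of 14 ExE and trophoblast markers was 30.6 and 40.8 CPM in SO+ embryos against 50.3, 80.5 and 59.2 CPM in SO- embryos (exact permutation p = 0.2, two-sided; 6 markers tested, 3 at 0 in every embryo). The most abundant were *Tex19.1* (log2 fold change 0.66, edgeR adjusted p = 0.315) and *Hand1*, a regulator of trophoblast and mesoderm, which was the only called gene of the list (log2 fold change 3.04, SE 0.52, edgeR adjusted p = 0.008). The defining ExE gene *Elf5* stood at 0.109 and 0.185 CPM in SO+ embryos against 0.484, 0 and 2.62 CPM in SO- embryos, and the giant cell gene *Prl3d1* had no counts. Relative to the SO+ mean, the summed *Krt8*, *Krt18*, *Krt7* and *Krt19* level was 1.77, 2.10 and 1.54 in SO- embryos 1, 2 and 3. The ExE and trophoblast sum was at 1.41, 2.25 and 1.66 in these embryos, and the VE sum at 1.39, 1.42 and 0.909. The part of these cell types in the keratin values was not tested. In bulk samples, a change in the number of cells of a type and a change in RNA per cell cannot be told apart.

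*Vim* and *Nes*, the filaments of mesenchymal and neural progenitor cells, were moderately lower in SO- embryos. *Vim* (chr2:13573927-13582826, plus strand, 9 exons) measured 33.7 and 27.2 CPM in SO+ embryos against 20.1, 25.1 and 22.9 CPM in SO- embryos. The highest SO- embryo was just under the lowest control, and the log2 fold change was -0.44 (SE 0.21). Beside it, the summed level of 15 mesoderm and epithelial-mesenchymal transition markers was 654 and 1077 CPM in SO+ embryos against 1089, 1158 and 781 CPM in SO- embryos (exact permutation p = 0.5, two-sided). *Cdh2* and *Hand1* of that list were called higher (log2 fold changes 0.97 and 3.04). The most abundant of the list, *Eomes* and *Mixl1*, had log2 fold changes of 0.05 and -0.44 and were not called. *Nes* (chr3:87971078-87980451, plus strand, 4 exons) measured 33.4 and 22.3 CPM in SO+ embryos against 12.1, 10.7 and 21.2 CPM in SO- embryos, with a log2 fold change of -0.85 (SE 0.30). SO- embryo 3 came close to SO+ embryo 2, and neither *Vim* nor *Nes* was called with all 5 embryos, *Nes* being called without SO+ embryo 2 (log2 fold change -1.11). Summed neural markers (12 genes) were at 166 and 211 CPM in SO+ against 165, 196 and 207 CPM in SO- embryos (exact permutation p = 1, two-sided), and *Sox11* of that list had a log2 fold change of 0.43 and was not called. Of the 6 neural markers tested, 4 had a log2 fold change above 0 (median 0.49). None was called in edgeR, DESeq2 or limma-voom, and 3 had an unadjusted p under 0.05 in edgeR.

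The neurofilament genes were the filament genes with the largest differences. *Nefl* (ENSMUSG00000022055, chr14:68083863-68089095, 4 exons) measured 55.2 and 34.4 CPM in SO+ embryos against 4.60, 4.47 and 5.25 CPM in SO- embryos. The SO- embryos lay close together, far below both controls, and the log2 fold change was -3.20 (SE 0.29), which was the 15th lowest of all tested genes. The SO- values rest on 19, 5 and 22 counts, against 1519 and 931 in SO+ embryos, and the exact 95% counting interval in SO- embryo 2 ran from 1.45 to 10.4 CPM, below the level of either control. Such intervals cover counting error only, since reads without molecular identifiers are not independent molecules. *Nefl* remained called in each fit that left out 1 embryo, with log2 fold changes from -3.49 to -2.83, but not in limma-voom. *Nefm* (ENSMUSG00000022054, chr14:68082590-68124846) measured 11.0 and 5.66 CPM in SO+ embryos against 1.45, 4.47 and 2.39 CPM in SO- embryos. It did not overlap between genotypes, but its SO- values rest on 6, 5 and 10 counts, the log2 fold change of -1.80 had an SE of 0.54, and it was not called except without SO+ embryo 2. In SO- embryo 2 the counting interval of *Nefm*, 1.45 to 10.4 CPM, included the level of SO+ embryo 2.

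The *Nefl* gene lies inside the annotated span of *Nefm*, on the opposite strand. The genes share 1108 exon bases, which are 32.8% of the *Nefl* exons and 19.2% of the *Nefm* exons, and SmartSeq2 libraries do not keep strand, so reads from this stretch cannot be told apart. The ratio of *Nefl* to *Nefm* counts was 5.01 and 6.08 in SO+ embryos against 3.17, 1.00 and 2.20 in SO- embryos. The remaining neurofilament chain, *Nefh*, measured 6.17 and 4.59 CPM in SO+ embryos against 0.726, 1.79 and 0.954 CPM in SO- embryos, and was not called (log2 fold change -2.43, SE 0.61, edgeR adjusted p = 0.060). It is named here after its values were seen. Summed over the 3 chains, neurofilament RNA was at 72.3 and 44.7 CPM in SO+ embryos against 6.77, 10.7 and 8.59 CPM in SO- embryos. *Ina*, which encodes internexin, a filament that assembles with the neurofilament chains, overlapped between genotypes, at 116 and 156 CPM in SO+ embryos against 102, 107 and 136 CPM in SO- embryos (log2 fold change -0.22, SE 0.16, edgeR adjusted p = 0.630). The nearest tested protein-coding genes beside the neurofilament interval, *Dock5* and *Stc1*, had log2 fold changes of -0.03 (edgeR adjusted p = 0.984) and -2.27 (SE 0.82, edgeR adjusted p = 0.213), the latter 904392 bases away. *Stc1* overlapped between genotypes, at 23.6 and 2.48 CPM in SO+ embryos against 4.11, 0 and 2.39 CPM in SO- embryos.

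Neuronal genes that are not filaments were set beside the neurofilaments. The summed level of 12 neuron markers was 116 and 89.1 CPM in SO+ embryos against 40.4, 28.6 and 41.5 CPM in SO- embryos (exact permutation p = 0.1, two-sided, the smallest possible). Of the 12 markers 6 could be tested, of which 3 were called lower, the microtubule regulator *Stmn2* (log2 fold change -1.41, edgeR adjusted p = 0.019), the neuronal tubulin *Tubb3* (-1.73, adjusted p = 0.008) and the RNA-binding protein *Elavl3* (-3.11, adjusted p = 0.003). DESeq2 also called 3 of these markers, and limma-voom called 0. The other 3 tested, *Map2* (log2 fold change -1.08), *Stmn3* (-1.20) and *Gap43* (0.32), were not called. *Nefl* alone equalled 47.5% and 38.6% of this neuron sum in SO+ embryos against 11.4%, 15.6% and 12.6% in SO- embryos. The summed level of 10 epiblast markers, among them *Pou5f1* itself, was 8231 and 6848 CPM in SO+ embryos against 3765, 3025 and 4729 CPM in SO- embryos (exact permutation p = 0.1, two-sided). The most abundant were the DNA methyltransferase *Dnmt3b* (log2 fold change -0.99, edgeR adjusted p = 0.004) and *Pim2* (-0.70, edgeR adjusted p = 0.143), and 5 of the 10 were called lower. *Pou5f1*, which the genotype removes by design, is 1 of these 5. *Fgf5* was the only marker of the list with a log2 fold change above 0 (0.38, edgeR adjusted p = 0.274) and was not called. Samples were taken as gastrulation begins, and markers named after neurons do not show that neurons were present. The part of cell composition, epiblast cell numbers included, in the *Nefl* values was not tested.

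**Figure D2:**
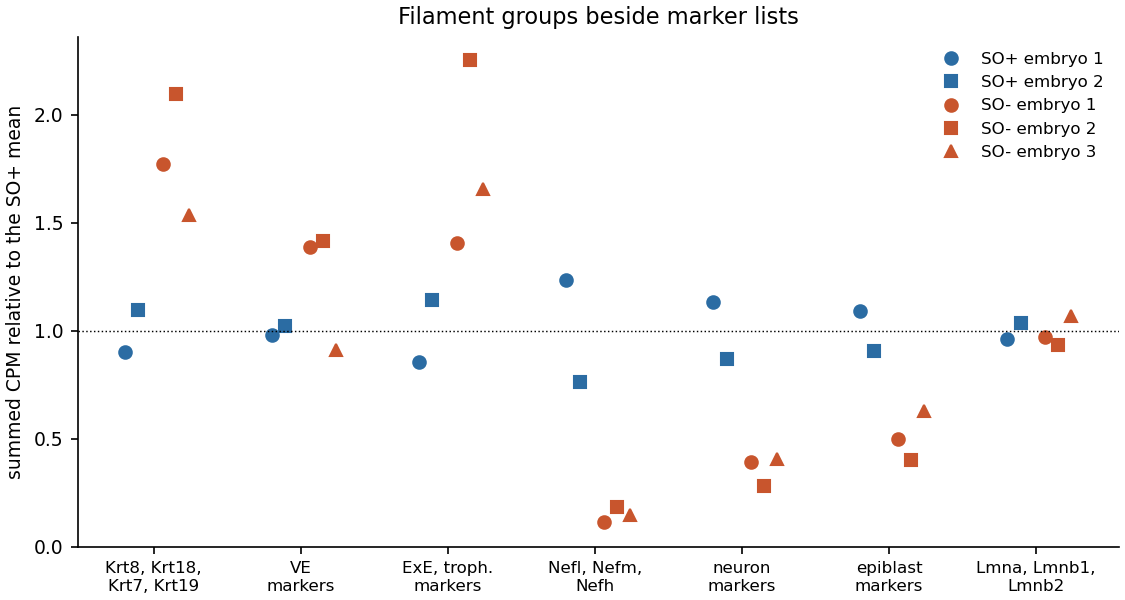
Summed CPM of 3 filament groups and 4 marker lists in each embryo, divided by the mean of the SO+ embryos (dotted line at 1). Keratin sums and ExE and trophoblast sums lie above both SO+ embryos in all 3 SO- embryos. VE sums lie above both in SO- embryos 1 and 2 and below both in SO- embryo 3. Neurofilament sums lie lower relative to controls than neuron or epiblast sums, and the lamin sums of the 2 genotypes overlap.

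Neither *Lmnb1* nor *Lmna* separated the genotypes. *Lmnb1* (chr18:56707813-56753424, 11 exons) measured 192 and 209.9 CPM in SO+ embryos against 197, 198 and 240.5 CPM in SO- embryos, with a log2 fold change of 0.09 (SE 0.12). Its approximate 95% interval, -0.15 to 0.33, was the narrowest among the 10 genes. *Lmna* (chr3:88480147-88509956, 12 exons) measured 12.1 and 17.3 CPM in SO+ embryos against 16.2, 16.1 and 12.6 CPM in SO- embryos, with a log2 fold change of 0.01 (approximate 95% interval -0.55 to 0.58). The sign of both varied as embryos were left out. *Lmnb2*, the other B-type lamin, was at 85.0 and 83.7 CPM in SO+ embryos against 78.1, 66.2 and 68.0 CPM in SO- embryos (log2 fold change -0.24, SE 0.14, edgeR adjusted p = 0.514), so its SO- values were all below the controls although it was not called. The sum of the 3 lamin genes was 289 and 311 CPM in SO+ embryos against 291, 280.1 and 321 CPM in SO- embryos. Counts of *Lmnb1* were 15.9 and 12.1 times those of *Lmna* in SO+ embryos against 12.2, 12.3 and 19.0 times in SO- embryos. Proteins that anchor or process lamins, *Lmnb2* included, were encoded by 26 listed genes, of which 24 could be tested and 0 were called (0 at an unadjusted p under 0.05 in edgeR, and 0 called by DESeq2 or limma-voom). The most abundant were *Banf1*, a chromatin protein at the nuclear envelope (log2 fold change -0.06, edgeR adjusted p = 0.881), the lamin-binding *Tmpo* (-0.07, adjusted p = 0.886), *Tor1aip2* (0.21, adjusted p = 0.467) and the lamin B receptor *Lbr* (0.15, adjusted p = 0.666). The median log2 fold change of the 24 tested genes was -0.03.

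Most of the remaining family had few or no counts. Of 63 other intermediate filament genes in the table, chiefly keratins of skin and hair, 35 had no count in any embryo, 28 had at least 1 count, and 7 could be tested. Their median log2 fold change was -0.22 and 0 were called in edgeR (2 at an unadjusted p under 0.05; DESeq2 and limma-voom also called 0). The 4 most abundant were *Ina* and *Lmnb2*, given above, the muscle filament desmin (*Des*, log2 fold change 0.42, SE 0.35, edgeR adjusted p = 0.679) and *Iffo1*. *Iffo1*, one of the 2 with an unadjusted p under 0.05, measured 2.51 and 2.74 CPM in SO+ embryos against 7.01, 4.47 and 5.73 CPM in SO- embryos (log2 fold change 1.18, SE 0.50, edgeR adjusted p = 0.304), the other being *Nefh*. *Krt10*, a type I keratin of the upper epidermis and the only keratin outside the 10 genes with enough counts to be tested, had a log2 fold change of 0.36 (SE 0.53, edgeR adjusted p = 0.861).

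**Figure D3:**
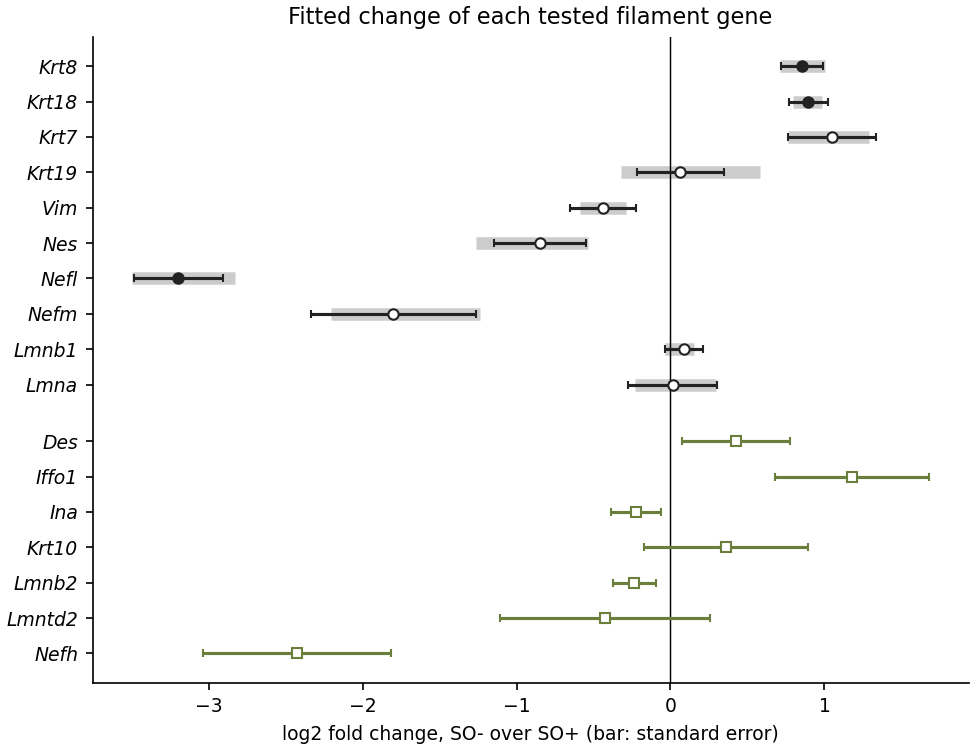
Fitted log2 fold change (SO- over SO+) of the 10 filament genes (circles) and of the 7 other tested members of the family (squares), with bars of 1 standard error, filled symbols for called genes and grey bands for the range as single embryos were left out. *Nefl* at -3.20, *Nefm* at -1.80 and *Nefh* at -2.43 lie farthest below 0, and *Krt8*, *Krt18* and *Krt7* lie between 0.85 and 1.05.

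Keratin filaments are tied to desmosomes, the junctions that join epithelial cells. Of 25 linker and desmosome genes, 24 were in the table and 14 could be tested, with a median log2 fold change of -0.08. Only *Jup*, which encodes plakoglobin, a desmosomal catenin, was called. It measured 247 and 257 CPM in SO+ embryos against 350.0, 481 and 349 CPM in SO- embryos, without overlap (log2 fold change 0.63, SE 0.14, edgeR adjusted p = 0.028). As with *Krt8*, SO- embryo 2 was highest. *Jup* was not called by limma-voom, nor when SO+ embryo 1, SO- embryo 1 or SO- embryo 2 was left out. The desmosomal cadherin *Dsg2* had a log2 fold change of 0.40 (SE 0.17, edgeR adjusted p = 0.318), the plakophilin *Pkp2* -0.13 (adjusted p = 0.829) and the cytolinker plectin, *Plec*, -0.41 (adjusted p = 0.458). In all, 4 of the 14 had an unadjusted p under 0.05, beside 1656 of the 12067 tested genes. They were *Jup*, *Dsg2*, *Perp* and *Itga6*, the last 2 of which are named after their values were seen. *Perp* had a log2 fold change of 1.21 (SE 0.36, edgeR adjusted p = 0.116) and the integrin *Itga6* one of -0.80 (SE 0.24, edgeR adjusted p = 0.131), so the list did not move in 1 direction.

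**Figure D4:**
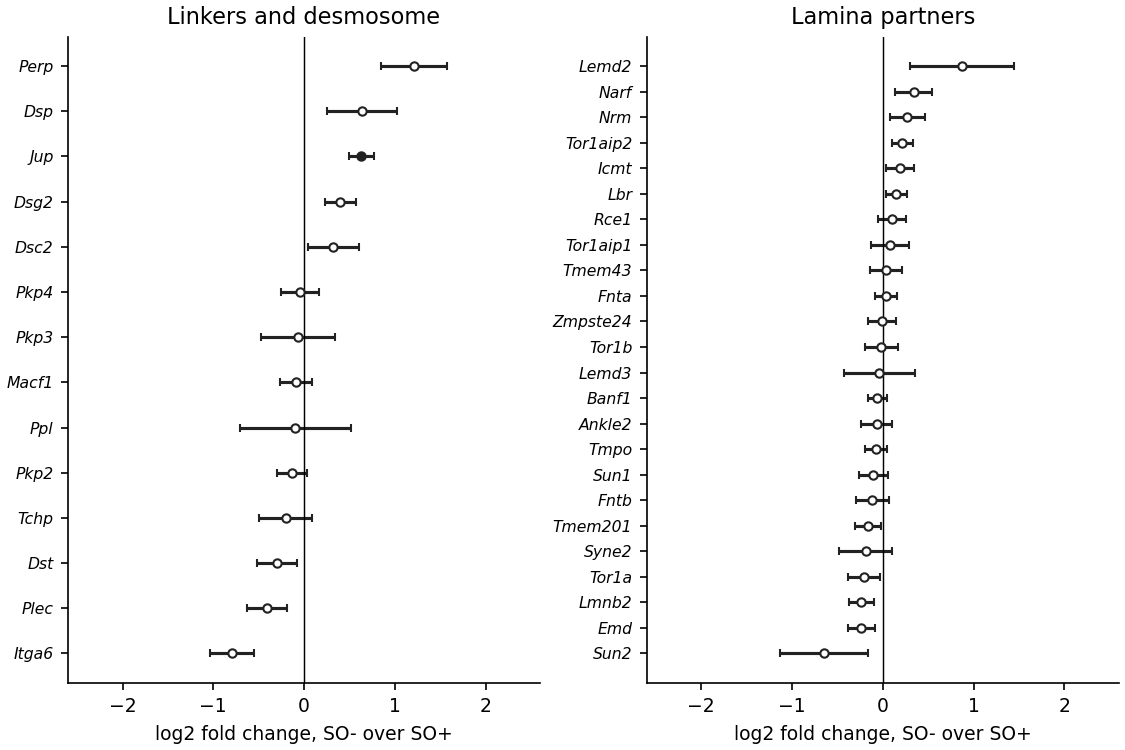
Fitted log2 fold change (SO- over SO+) with bars of 1 standard error for the 14 tested linker and desmosome genes and the 24 tested lamina partners, with filled symbols for called genes. *Jup* at 0.63 is the only filled symbol, and 10 of the 24 lamina partners lie above 0.

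Other tissues that could have been carried along in the dissection were also measured. The sum of 11 parietal endoderm markers was 561 and 626 CPM in SO+ embryos against 663, 700 and 613 CPM in SO- embryos (exact permutation p = 0.3, two-sided), with *Sparc* and *Lamb1* the most abundant (log2 fold changes 0.18 and 0.36, neither called). The 14 markers of maternal decidua and blood summed to between 4.76 and 9.78 CPM in every embryo (exact permutation p = 0.4, two-sided). Of these, 5 had no count, 1 could be tested, and the most abundant were *Pgr* and *Dcn*. *Pgr*, the 1 tested, was at 1.27 and 1.66 CPM in SO+ embryos against 5.08, 3.58 and 3.58 CPM in SO- embryos, without overlap. Its SO- values rest on 21, 4 and 15 counts, and edgeR did not call it (log2 fold change 1.50, SE 0.60, edgeR adjusted p = 0.267). DESeq2 called 1 gene of this list and limma-voom 0. *Dcn* overlapped between genotypes.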

How the data were processed

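RNA of single embryos (1 ng input, 15 cycles of preamplification, polyA selection) was sequenced from SmartSeq2 libraries. Per the study's methods, cutadapt removed adapters, STAR placed the reads on GRCm38 (mm10) and HTSeq-count summed them over Ensembl genes. The counts deposited by the authors are whole numbers and not normalized. Strand setting and duplicate removal are not given in the sources used here. Of the 49671 genes, 99.3% matched GENCODE M21, the source of coordinates. The filament genes, wider lists and markers were chosen with earlier results of these data known. Counts were tested with edgeR 4.0.16 in R 4.3.3 (TMM, filterByExpr, quasi-likelihood, genotype only, Benjamini-Hochberg over 12067 genes). Each SE was obtained from the log2 fold change and its F statistic. Intervals of log2 fold changes use a normal multiple of that SE, so they can be narrower than the quasi-likelihood test implies. CPM values use library totals. Marker sums were compared by exact permutation (scipy 1.17.1). Similar transcripts were sought with blastn 2.17.0 (at least 90% identity over 150 bases). The fitting script was tested on simulated counts. Named genes were the filament genes, *Pou5f1*, called genes and the 4 most abundant of each wider list, the 2 most abundant of each marker list (1 neural marker is not reported here), and flanking genes; *Nefh*, *Perp*, *Itga6*, *Krt10*, *Elavl3*, *Cdh2*, *Map2*, *Stmn3*, *Gap43*, *Fgf5*, *Elf5* and *Prl3d1* were added after their values were seen. Alternatives were DESeq2 1.42.0, limma-voom (limma 3.58.1), other scaling factors and filters, the replicate number as a block, and each embryo left out. Libraries of 1 genotype differed by more than sampling error (chi-square divided by its degrees of freedom, 32.7 for SO+ and between 2.89 and 5.93 for SO-).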

Additional observations from a re-analysis of the deposited data

How the results depend on the processing

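Fold changes of *Krt8*, *Krt18*, *Krt7*, *Nefl*, *Nefm*, *Nes* and *Vim* kept their sign under every alternative that gave a value (11 for *Nefl* and *Nefm*, which could not be fitted when at least 10 counts were required in every embryo, and 12 for the others), whereas those of *Krt19*, *Lmna* and *Lmnb1* did so in 9, 6 and 10 of 12. Genes called numbered 283 of 12067 in edgeR, 380 of 15084 in DESeq2 and 91 of 12067 in limma-voom. DESeq2 also called *Krt7*, and limma-voom called *Krt8* and *Krt18* but not *Nefl*. With 1 embryo left out, between 35 and 573 genes, between 1 and 6 filament genes, and between 0 and 1 linker genes were called. The fewest filament genes, *Nefl* alone, were called without SO- embryo 1 or without SO- embryo 2, and the most without SO+ embryo 2. Linker genes called fell from 1 to 0 in limma-voom. No lamina partner or other family gene was called under any alternative. The cause of these differences was not tested. Summed mesoderm markers, at 1.17 times the SO+ mean, ranged from 0.937 to 1.54 as single embryos were left out and fell below 1 without SO+ embryo 1. Neural markers, at 1.01, ranged from 0.898 to 1.14, with 0.898, 0.989 and 0.959 without SO+ embryo 1, SO- embryo 2 and SO- embryo 3. Same-numbered embryos are different animals. The deviations of the 2 numbered pairs from their group means correlated at 0.0077 and 0.115. With 2 SO+ embryos these deviations mirror each other, so the correlations cannot decide whether the numbers pair the embryos. With the replicate block 929 of 12067 genes, 5 filament genes (*Krt7* and *Nes* in addition) and 3 linker genes were called. That fit has little residual information, since SO- embryo 3 has no SO+ embryo of its number. Depth limits statements on low genes in SO- embryo 2, where 3 counts equal 2.68 CPM.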
